A study of Mus musculus with 12 samples.

Results

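The 8 genes here encode 5 granzymes (Gzma, Gzmb, Gzmc, Gzmk and Gzmm), the pore-forming protein perforin (Prf1), the granule membrane protein Nkg7, and Serpinb9. Serpinb9 is an intracellular inhibitor of granzyme B. The genes were chosen by symbol from the 20778 genes of the gene count table. All 8 were among the 12122 genes that passed the filter on low counts, 7 of them at the filter's level in at least 11 of the 12 libraries. Gzmc reached that level in 4 libraries, all of them treated with αCD3 or LPS, so it passed through the groups in which it was high. The libraries came from CD8 T cells that were taken from the spleens of C57BL/6 mice with magnetic beads and kept in culture for 6 hours. Cells were left untreated (Naïve) or received an antibody to CD3 (αCD3, 1 µg/ml), interferon-γ (IFNγ, 70 ng/ml) or the bacterial product lipopolysaccharide (LPS, 1 µg/ml), with 3 libraries in each of the 4 groups. For αCD3 and LPS the unit is uncertain, since the treatment protocol writes mg/ml where the sample annotation writes µg/ml. The labelled age was 6 weeks, but the study's methods give another age for its mice. The sources used here do not say whether the 3 libraries of a group came from separate animals, so the p-values measure the spread between these libraries, which may be technical.

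Cytotoxic T cells kill by releasing granules toward a bound target cell. Perforin opens the target's membrane and granzymes, a family of serine proteases, enter and cleave proteins that commit the cell to die. Naive CD8 T cells hold little of this machinery and build it after the T cell receptor, for which CD3 is the signalling part, is engaged. Granzyme B is the member best known for activating caspases, granzyme A cleaves other substrates, and granzyme C is a close relative of granzyme B in rodents. Serpinb9 protects cells that make granzyme B from their own protease. NK cells carry granzymes and perforin too, so the markers of NK cells matter to how these values are read.

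Of the 8 genes, 4 lie close to another member on the mouse genome (build GRCm38). Gzmb (chr14:56258838-56262260) and Gzmc (chr14:56231441-56234656) lie on the minus strand, 24.18 kb apart, in a run of 7 granzyme genes that spans 144.6 kb. Gzma (chr13:113093825-113100981) and Gzmk (chr13:113171608-113225908) lie on the minus strand, 70.63 kb apart, and the Gzmk span overlaps Esm1 on the other strand. The other 4 do not neighbour each other. On chromosome 10, with 409 genes between them, the plus strand holds Prf1 (chr10:61297833-61304680) and Gzmm (chr10:79689020-79695261). Nkg7 (chr7:43437073-43438249) and Serpinb9 (chr13:33003250-33017957) are also on the plus strand. Of the 31-base words in the Gzmb transcripts 98.65% were found in no other gene, against 85.19% for Gzmc and 95.06% for Serpinb9, so Gzmc was the member most exposed to reads shared with its relatives.

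Promoters are shown for 4 members whose responses differed: Gzmb, high with αCD3 and LPS; Nkg7, high with αCD3; Serpinb9, higher on average in each treated group; and Gzma, highest with LPS. Each is the stretch of 250 bases before the RefSeq start (GRCm38.p6), written 5′ to 3′ on the gene's own strand. Capitals mark matches, on either strand, to 5 motifs: AP-1 (TGANTCA), GAS (TTCNNNGAA), ISRE (GAAA, then any 2 bases, then GAAA), RUNX (TGTGGTT) and T-box (TCACACC). No matches overlapped in these 4 windows.
Gzmb (chr14:56262335-56262584, minus strand): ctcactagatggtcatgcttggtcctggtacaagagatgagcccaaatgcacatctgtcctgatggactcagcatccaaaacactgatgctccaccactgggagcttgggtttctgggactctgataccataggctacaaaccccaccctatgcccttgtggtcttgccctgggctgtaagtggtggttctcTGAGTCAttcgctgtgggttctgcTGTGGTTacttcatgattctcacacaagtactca
Nkg7 (chr7:43436888-43437137, plus strand): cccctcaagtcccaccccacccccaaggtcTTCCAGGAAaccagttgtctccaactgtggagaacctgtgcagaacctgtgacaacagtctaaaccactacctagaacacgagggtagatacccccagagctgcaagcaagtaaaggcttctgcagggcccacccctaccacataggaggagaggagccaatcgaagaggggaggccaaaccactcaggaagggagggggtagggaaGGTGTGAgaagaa
Serpinb9 (chr13:33004291-33004540, plus strand): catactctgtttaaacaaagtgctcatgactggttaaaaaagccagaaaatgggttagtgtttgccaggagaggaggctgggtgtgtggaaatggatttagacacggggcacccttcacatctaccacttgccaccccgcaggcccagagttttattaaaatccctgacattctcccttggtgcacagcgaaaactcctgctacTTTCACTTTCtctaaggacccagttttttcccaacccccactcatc
Gzma (chr13:113100982-113101231, minus strand): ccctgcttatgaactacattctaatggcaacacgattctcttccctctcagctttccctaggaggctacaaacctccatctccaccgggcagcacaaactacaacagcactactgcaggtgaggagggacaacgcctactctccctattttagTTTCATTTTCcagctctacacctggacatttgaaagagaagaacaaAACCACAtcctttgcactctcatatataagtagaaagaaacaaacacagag

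The Gzmb window held an AP-1 match followed by a RUNX match nearer the start. Nkg7 held a GAS and a T-box match, Serpinb9 an ISRE match, and Gzma an ISRE and a RUNX match. Of the other members, Gzmc held a RUNX match, Gzmk a T-box match and Prf1 no match, and the 2 starts of Gzmm held a GAS and a T-box match. Over all 32851 promoter windows of this length the shares with a match were 6.75% for AP-1, 7.02% for GAS, 2.98% for ISRE, 4.4% for RUNX and 3.33% for T-box. The ISRE motif and the form of the RUNX motif were chosen after the windows had been seen. A match is a run of letters and was not tested as a binding site.

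Libraries held between 10196248 and 27610175 counts, of which the 8 genes took 0.0139 to 0.0909%. Values below are CPM, counts scaled to the size of the library, and levels of different genes are compared per kilobase of transcript. As a check of the labelled cell type, 8 T cell markers summed to 1226 to 2252 CPM and 6 B cell markers to 1585 to 3045 CPM, the B cell sum being the higher in 10 of 12 libraries. Per kilobase, the sums were 757.2 to 1364 for the T cell markers and 606.4 to 1710 for the B cell markers, with the B cell sum higher in 8 of 12, among them all Naïve and IFNγ libraries. Replicate 1 stood apart in every group: 5 NK cell markers summed to 6.82 to 10.1 CPM in the 4 replicate 1 libraries and to 16.7 to 27.2 CPM in the other 8. The sum of 7 myeloid markers ran from 270.1 to 392.8 CPM in replicate 1 and from 334.2 to 732.6 CPM in the others, and that of 3 plasmacytoid dendritic cell markers from 28.5 to 42.1 CPM and from 35.1 to 105.05 CPM. In bulk samples like these, fewer cells of a type and less RNA per cell cannot be told apart. Libraries that share a replicate number deviated together, so values from a fit with the number as a block are given for the members where they change a call and for the counts of the lists.

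After αCD3, Gzmb, Nkg7 and Serpinb9 rose and Gzmk fell, and Gzmc was called as higher. Gzmc is left out of the counts that follow, since it passed the filter through the αCD3 and LPS libraries in which it was high. Of the other 7 members 4 were called with αCD3, against 38.6% of all genes tested (22.9% higher and 15.7% lower). For 5 of the 7 the libraries did not overlap with Naïve, as for 52.4% of all genes. Their median log2 fold change was 0.98, against -0.02 over all genes. After LPS, Gzmb and Serpinb9 rose and none of the 7 fell, 2 calls against 49.3% of all genes (26.9% higher and 22.3% lower), with a median of 0.59 against -0.01. With LPS, 2 of the 7 did not overlap with Naïve, as for 58% of all genes. After IFNγ, edgeR's quasi-likelihood test called 0 of 7, against 12.4% of all genes (8.17% higher and 4.27% lower), and 1 member did not overlap with Naïve, as for 31.5% of all genes. One of the 7 had an unadjusted p under 0.05 there, DESeq2 called 1 (15.2% of all genes) and limma-voom called 0 (11.9% of all genes). With the replicate number as a block, 2 of the 7 rose with IFNγ, where 24.9% of all genes were called. The block called 5 of the 7 with αCD3 and 3 with LPS, against 52.4% and 59.5% of all genes. Over the 4 groups together the members called were Gzmb, Gzmk, Nkg7, Serpinb9 and the selected Gzmc, with 59.9% of all genes called, and Gzma joined them with the block, with 72.2% called. The comparisons with Naïve share the Naïve libraries and are therefore not independent of each other. The plot of CPM by library shows every value.

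**Figure D1:**
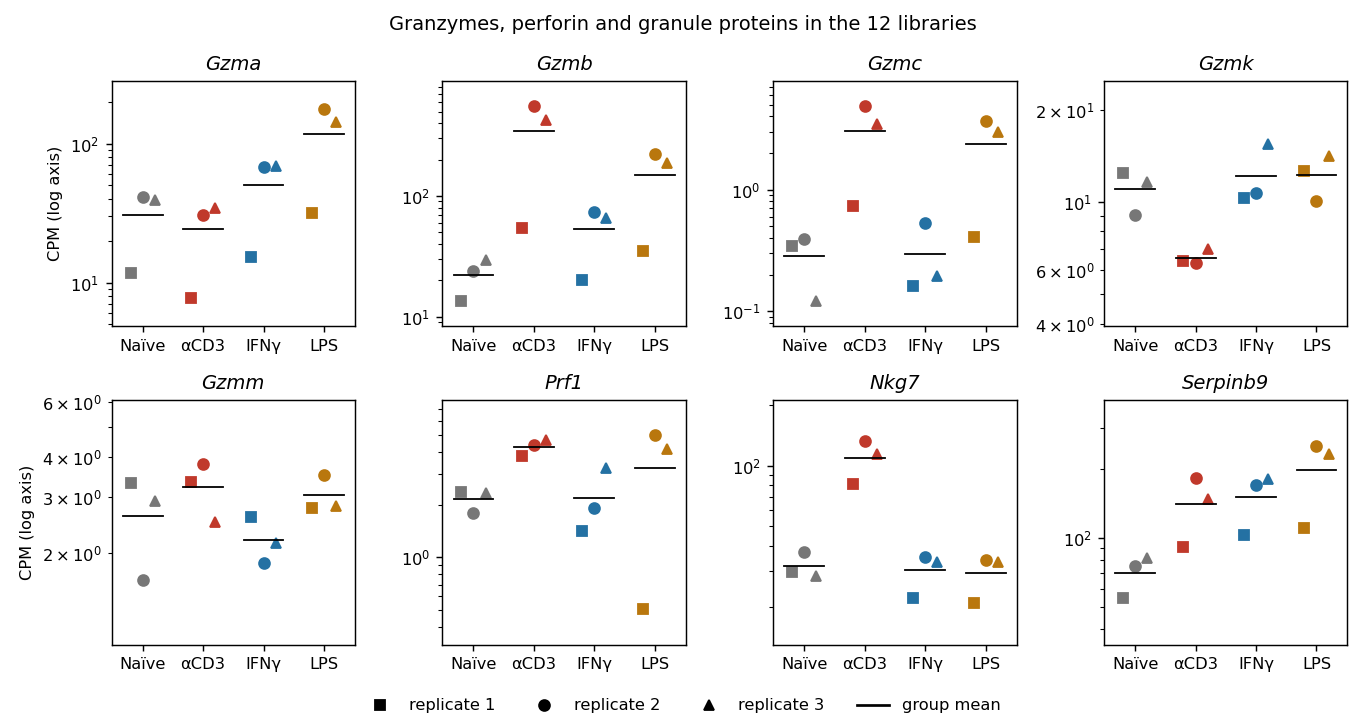
CPM of each gene (log axis) in the 12 libraries, by group on the horizontal axis; symbols give the replicate number and bars the group mean. Nkg7 is high with αCD3 in all 3 replicates, while replicate 1 is the lowest library of its group for Gzma and Gzmb throughout.

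Gzmb had the largest fold change among the 8 genes in the comparison of αCD3 with Naïve. Its level was 13.4, 24.1 and 29.3 CPM in Naïve replicates 1 to 3 and 54.2, 560.7 and 422.4 CPM with αCD3. All αCD3 libraries lay above all Naïve libraries, and the αCD3 libraries themselves differed widely, replicate 1 being far below the others. The log2 fold change was 3.96 ± 0.93 (SE; adjusted p = 0.00741), and the adjusted p was 0.119 and 0.114 when all libraries of replicate number 2 or 3 were left out. With LPS, Gzmb reached 35.3, 223.2 and 187.1 CPM, again above every Naïve library and again lowest in replicate 1. The log2 fold change of 2.75 ± 0.89 had an adjusted p of 0.0258, which rose to 0.0872, 0.065 and 0.0523 without Naïve replicate 1, 2 or 3, and to 0.0798 and 0.063 without LPS replicate 2 or 3. It was 0.191 and 0.168 without all libraries of replicate number 2 or 3, and the call held under 7 of 16 alternatives. With IFNγ the values were 19.9, 73.4 and 65.8 CPM, which overlap with Naïve. Within each replicate number Gzmb was higher with IFNγ, by 1.49, 3.05 and 2.24 times. The difference did not pass the test without the block (log2 fold change 1.26 ± 0.87, adjusted p = 0.416) or with it (1.08, 95% interval 0.04 to 2.13, adjusted p = 0.125). Of 16 alternatives, 1 other than the block called Gzmb as higher with IFNγ. Gzmb was higher with αCD3 than with LPS within each replicate number, by 1.54, 2.51 and 2.26 times. That difference did not pass the test, at 1.21 in log2 (95% interval -0.62 to 3.04, adjusted p = 0.341) or, with the block, at 1.09 (0.19 to 1.99, adjusted p = 0.0653). It was called under 1 of 16 alternatives, which was not the block.

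Between IFNγ and αCD3, 1 of the 7 members other than Gzmc was higher and 2 were lower with IFNγ, against 37.2% of all genes called (15.8% higher and 21.4% lower). With the block 4 were called, against 49.7%, and 3 did not overlap, as for 48.4% of all genes. Gzmb was 2.70 lower with IFNγ on the log2 scale (log2 fold change -2.70 ± 0.88, adjusted p = 0.0332). That call was lost without αCD3 replicate 2 (adjusted p = 0.108) or 3 (0.0797), and without IFNγ replicate 1 (0.101), 2 (0.0624) or 3 (0.0717). It was also lost without all libraries of replicate number 2 (0.212) or 3 (0.221), and held under 6 of 16 alternatives. Between IFNγ and LPS, edgeR called 0 of these 7, against 40.4% of all genes (18% higher and 22.4% lower). None of the 7 had an unadjusted p under 0.05 there (0 of 7), and DESeq2 and limma-voom also called 0 of them, against 42% and 39.3% of all genes. The libraries did not overlap for 1 of the 7, as for 49.8% of all genes. Gzmb was called there with the replicate number as a block (log2 fold change -1.36 ± 0.41, adjusted p = 0.0269), when 3 of the 7 were called against 52.7% of all genes. With all 12 libraries and no block it was not called (-1.49 ± 0.85, adjusted p = 0.187). Of 16 alternatives, 2 called Gzmb there, the block among them.

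Gzmc, the neighbour of Gzmb, was near the limit of counting in Naïve and IFNγ. The Naïve libraries held 7, 5 and 2 counts and the IFNγ libraries 2, 6 and 2, against 21, 59 and 43 with αCD3 and 4, 44 and 37 with LPS. In CPM, Naïve lay at 0.34, 0.39 and 0.12, αCD3 at 0.74, 4.89 and 3.46, and LPS at 0.41, 3.69 and 2.98. In CPM, the αCD3 and LPS libraries lay above every Naïve library. LPS replicate 1 did so with 4 counts, against 7 and 5 in Naïve replicates 1 and 2. Because Gzmc passed the filter on low counts through the treated libraries in which it was high, its tests are a description and support nothing. With only the groups compared, it did not pass the filter for LPS against Naïve or for any comparison with IFNγ. The log2 fold change with αCD3 was 3.35 ± 0.89 (adjusted p = 0.0134), and the adjusted p was 0.0532 without Naïve replicate 3 and 0.0526 without αCD3 replicate 2. With LPS the log2 fold change was 3.05 ± 0.90 (adjusted p = 0.0166), and the adjusted p was 0.0601 without Naïve replicate 3 and 0.0617 without LPS replicate 2. Gzmc was lower with IFNγ than with αCD3 (log2 fold change -3.28 ± 0.93, adjusted p = 0.0182), a call lost without αCD3 replicate 2 (0.0616) or IFNγ replicate 1 (0.0657) or 3 (0.0629). It was also lower with IFNγ than with LPS (-2.98 ± 0.94, adjusted p = 0.0273), a call lost without IFNγ replicate 1 (0.0918) or 3 (0.0816) or LPS replicate 2 (0.0908) or 3 (0.0701). All 4 of these calls of Gzmc were also lost without the libraries of replicate number 2 (adjusted p from 0.121 to 0.135) or 3 (0.189 to 0.233). The remaining genes of the run, Gzmd, Gzme, Gzmf, Gzmg and Gzmn, were too low to test. Gzmg and Gzmn had 0 counts in all 12 libraries, where 3 counts correspond to 0.106 to 0.307 CPM, and the highest value of the other 3 was an estimated 6.12 counts of Gzme in LPS replicate 2.

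Gzma followed a different order from Gzmb. Its level was 11.8, 41.6 and 39.1 CPM in Naïve, 7.80, 30.6 and 34.4 CPM with αCD3, 15.3, 67.3 and 68.6 CPM with IFNγ, and 31.8, 175.9 and 143.2 CPM with LPS. All groups overlapped and replicate 1 was low in each, but within every replicate number the order was αCD3, Naïve, IFNγ, LPS from low to high. With all 12 libraries and no block, no difference was called, the closest being LPS against Naïve (log2 fold change 1.94 ± 0.79, adjusted p = 0.0631). With the block, Gzma rose with LPS by 1.84 ± 0.11 (adjusted p = 6.38e-07) and with IFNγ by 0.65 ± 0.12 (adjusted p = 0.00282), and had a log2 fold change of -0.39 ± 0.12 with αCD3 (adjusted p = 0.0198). Leaving out LPS replicate 1 alone gave 2.39 for LPS against Naïve (adjusted p = 0.0238). Of 16 alternatives, the block among them, 4 called LPS against Naïve, 2 called IFNγ against Naïve and 1 called αCD3 against Naïve.

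The direct comparisons of the treated groups separated Gzma too once the block was used. Between αCD3 and LPS, 1 of the 7 members other than Gzmc was higher and 1 lower without the block, against 19.4% of all genes called (9.64% higher and 9.76% lower), and 4 were called with it, against 34.7%. The groups did not overlap for 2 members, as for 34.8% of all genes. Gzma was lower with αCD3 than with LPS (log2 fold change -2.22 ± 0.12 with the block, adjusted p = 1.29e-06; -2.31 ± 0.80 and 0.0703 without it; -2.76 and 0.0302 without LPS replicate 1). IFNγ lay between them, 1.04 ± 0.12 above αCD3 (adjusted p = 5.62e-05) and with a log2 fold change of -1.18 ± 0.11 against LPS (adjusted p = 1.26e-05), both with the block. Each of these differences of IFNγ was called under 2 of 16 alternatives, the block among them. Gzma ran from 7.80 to 31.8 CPM in replicate 1 and from 30.6 to 175.9 CPM in the other libraries. In each group, Gzma and the sum of the NK cell markers were lowest in replicate 1. By group, the sum of the 5 NK markers was 10.1 to 24.9 CPM in Naïve, 9.15 to 18.6 CPM with αCD3, 9.92 to 27.2 CPM with IFNγ and 6.82 to 16.8 CPM with LPS. The markers differed among themselves with LPS. Klrb1c fell (log2 fold change -1.66, adjusted p = 0.0157; -1.61 and 0.000637 with the block). Ncr1 was at 0.73, 2.82 and 2.30 CPM in Naïve and at 1.23, 6.39 and 4.18 CPM with LPS, and it rose with the block alone (0.96, adjusted p = 0.00387, against 1.05 and 0.265 without it). With LPS, 1 of the 5 fell without the block, against 49.3% of all genes called, and 1 rose and 3 fell with it, against 59.5%. The part of NK cells in the levels of Gzma was not tested.

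Per kilobase, Gzmb and Gzma changed places between αCD3 and the other groups. The ratio of Gzmb to Gzma within a library was 0.693, 0.354 and 0.458 in Naïve, 0.797, 0.667 and 0.586 with IFNγ, and 0.677, 0.776 and 0.799 with LPS. With αCD3 it was 4.25, 11.2 and 7.52, so Gzmb exceeded Gzma in those 3 libraries and in none of the other 9. The ratio was chosen after its values had been seen and carries no test.

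**Figure D2:**
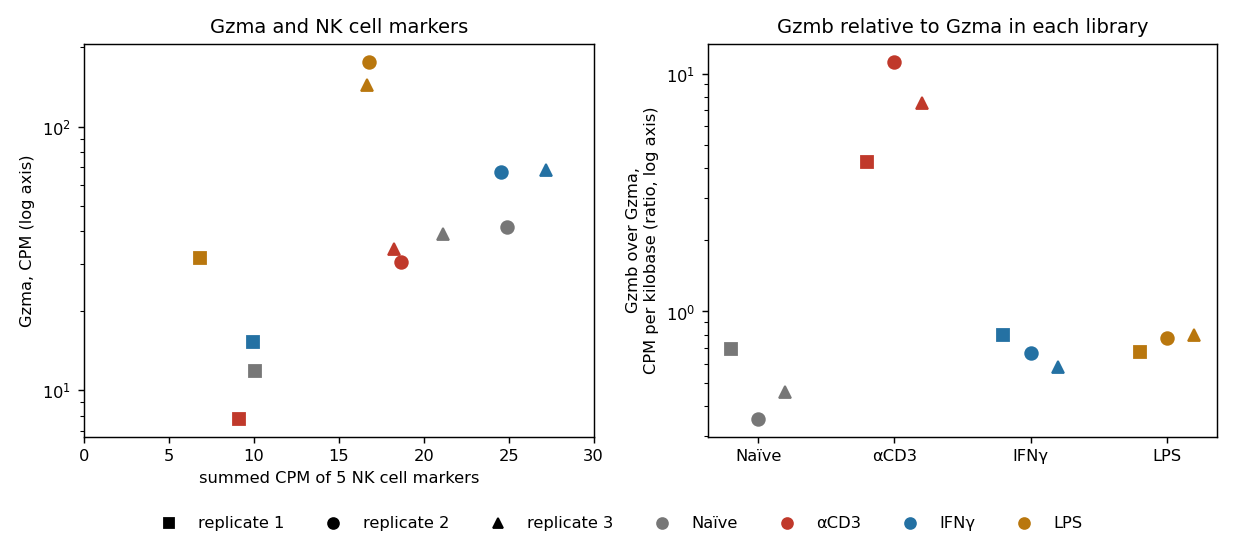
Left, CPM of Gzma (log axis) against the summed CPM of 5 NK cell markers in each of the 12 libraries; right, the ratio of Gzmb to Gzma in CPM per kilobase (log axis) by group, with symbols for replicate numbers and colours for groups. Replicate 1 is the lowest library of its group on both axes of the left plot. The αCD3 ratios of 4.25 to 11.2 lie above the 0.354 to 0.799 of the other groups.

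Gzmk, a granzyme typical of memory cells, fell with αCD3. It lay at 12.4, 9.07 and 11.6 CPM in Naïve and at 6.42, 6.29 and 7.01 CPM with αCD3, without overlap. The log2 fold change was -0.75 ± 0.19 (adjusted p = 0.0107), and the adjusted p was 0.0582, 0.0521 and 0.0688 when all libraries of replicate number 1, 2 or 3 were left out. IFNγ (10.3, 10.7 and 15.5 CPM) and LPS (12.6, 10.1 and 14.2 CPM) overlapped with Naïve, with adjusted p of 0.709 and 0.528. Gzmk was 0.89 ± 0.19 higher with IFNγ than with αCD3 (adjusted p = 0.00431), and αCD3 against LPS gave -0.90 ± 0.19 (adjusted p = 0.00837). Without number 3 these adjusted p were 0.0722 and 0.104, and without number 2 that against LPS was 0.0655. Replicate 1 was the lowest library for Gzmk with IFNγ and in no other group. Gzmm, a granzyme found mainly in innate lymphocytes, ranged from 1.64 to 3.81 CPM over all libraries. Its 3 groups of treated libraries overlapped with Naïve, and the adjusted p over the 4 groups was 0.33.

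Prf1 was low, and no comparison of it passed the test with all 12 libraries in the fit. It was at 2.36, 1.79 and 2.32 CPM in Naïve and at 3.80, 4.35 and 4.65 CPM with αCD3. These groups did not overlap, but the log2 fold change of 0.98 ± 0.55 did not pass the test (95% interval -0.22 to 2.19, adjusted p = 0.179). Within each replicate number Prf1 was higher with αCD3, by 1.61, 2.43 and 2.00 times, and the block gave 0.96 (-0.14 to 2.06, adjusted p = 0.129). Fitted on the αCD3 and Naïve libraries alone, it was called (adjusted p = 0.0112). With LPS the replicates disagreed: replicate 1 was at 0.51 CPM, the lowest value of Prf1 in the data, and the others at 4.97 and 4.17 CPM. Without LPS replicate 1, the log2 fold change of LPS against Naïve was 1.08 (adjusted p = 0.0135), against 0.59 ± 0.56 with it (adjusted p = 0.401), and that of IFNγ against LPS was -1.08 (adjusted p = 0.0182). Without the 4 replicate 1 libraries, αCD3 against Naïve was 1.14 (adjusted p = 0.011). IFNγ was at 1.42, 1.90 and 3.23 CPM, overlapping with Naïve.

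Nkg7, a membrane protein of the granule needed for its release, responded to αCD3 and not detectably to the other agents. It was at 29.7, 37.5 and 28.3 CPM in Naïve and at 81.3, 132.9 and 114.1 CPM with αCD3, without overlap. The log2 fold change was 1.78 ± 0.24 (adjusted p = 0.000325). IFNγ (22.2, 35.3 and 33.4 CPM) and LPS (20.8, 34.1 and 33.3 CPM) overlapped with Naïve, with 95% intervals of the log2 difference from -0.62 to 0.47 and from -0.65 to 0.44. The difference between agents passed the test: IFNγ against αCD3 gave -1.85 ± 0.25 (adjusted p = 0.000242) and αCD3 against LPS gave 1.89 ± 0.25 (adjusted p = 0.000592). Nkg7 was called in these 3 comparisons under each of their 16 alternatives.

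Serpinb9, the granzyme B inhibitor, was the member whose treated libraries lay above Naïve with all 3 agents. It was at 54.9, 75.3 and 81.3 CPM in Naïve, 91.0, 181.6 and 146.8 CPM with αCD3, 102.9, 170.4 and 180.1 CPM with IFNγ, and 109.8, 249.6 and 230.5 CPM with LPS. The lowest library of each treated group was replicate 1, and it still exceeded the highest Naïve library. The log2 fold change with LPS was 1.48 ± 0.35 (adjusted p = 0.00561; 0.0828 and 0.0802 without the libraries of replicate number 2 or 3). With αCD3 it was 0.99 ± 0.35 (adjusted p = 0.0453), a call lost without Naïve replicate 1 (0.139), 2 (0.0869) or 3 (0.071) or αCD3 replicate 2 (0.168) or 3 (0.104), and without all libraries of replicate number 2 (0.284) or 3 (0.206). The call with αCD3 held under 5 of 16 alternatives. With IFNγ the log2 fold change was 1.10 ± 0.35 (adjusted p = 0.0674), and it was called with the block (1.07 ± 0.12, adjusted p = 0.000374) and without IFNγ replicate 1 (1.30, adjusted p = 0.0454). With the block, Serpinb9 was also lower with IFNγ than with LPS (-0.34 ± 0.12, adjusted p = 0.0384) and lower with αCD3 than with LPS (-0.47 ± 0.12, adjusted p = 0.0156).

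**Figure D3:**
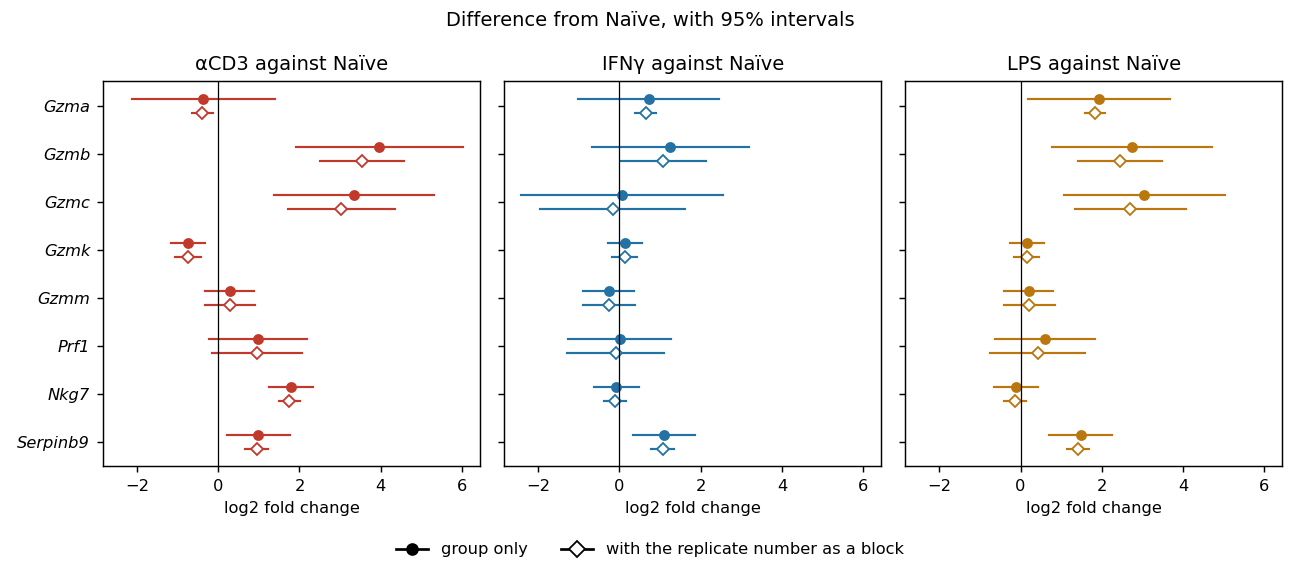
Log2 fold change against Naïve (horizontal axis) with its 95% interval for the 8 genes and the 3 agents; filled circles are from the fit on group alone and open diamonds from the fit with the replicate number as a block. The block narrows the intervals of every gene but Gzmm, and those of Gzmm and Prf1 cross 0 in both fits with all 3 agents.

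Per kilobase of transcript, the order of the members differed between groups. In Naïve, Nkg7 (36.1 ± 5.64 CPM per kilobase, SD, n = 3) and Gzma (35.1 ± 18.8) led and were not separated beyond their spread, followed by Serpinb9 (20.3 ± 3.98), Gzmb (15.5 ± 5.66) and Gzmk (10.7 ± 1.68). Gzmm (2.04 ± 0.678), Prf1 (0.872 ± 0.129) and Gzmc (0.318 ± 0.161) were lowest. With αCD3, Gzmb (240.8 ± 182.3) and Nkg7 (124.2 ± 29.7) led, and their ranges overlapped through replicate 1. With LPS, Gzma (133.2 ± 86.02) and Gzmb (103.4 ± 69.4) led, again within their spread. Mean Prf1 lay below mean Gzma, Gzmb and Gzmk in every group, at 1.72 ± 0.174 with αCD3.

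**Figure D4:**
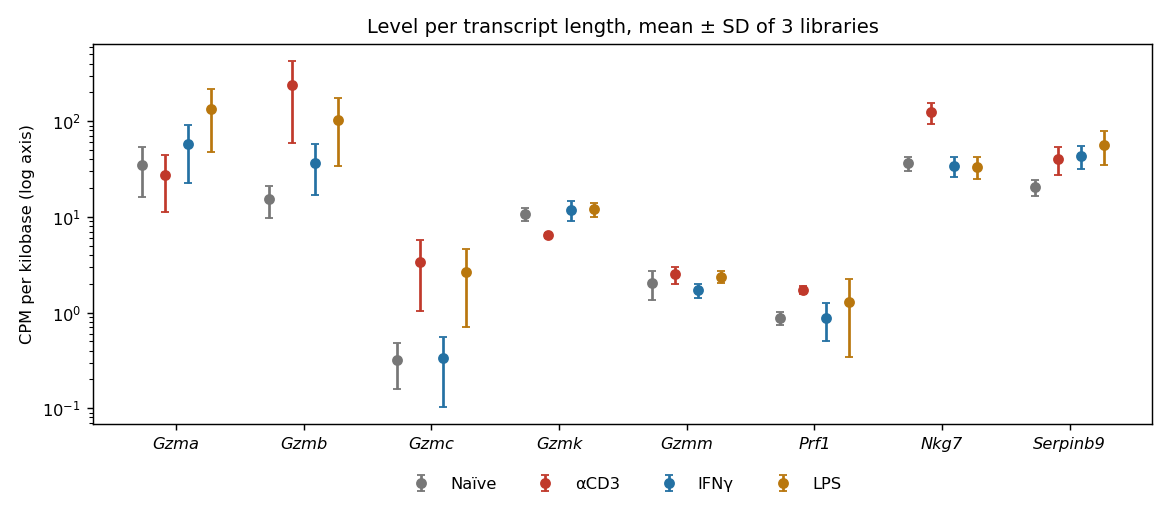
Mean CPM per kilobase (log axis) with SD of 3 libraries for each gene in the 4 groups. Gzmb spans the widest range, from 15.5 in Naïve to 240.8 with αCD3, and the lowest mean is that of Gzmc in Naïve and with IFNγ and of Prf1 with αCD3 and LPS.

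Genes that sort, mature and release granules were counted from lists, and the counts are to be read against all genes called: 22.9% higher and 15.7% lower with αCD3, 8.17% and 4.27% with IFNγ, and 26.9% and 22.3% with LPS. With the block the shares called in either direction were 52.4%, 24.9% and 59.5%. Of 17 genes of granule sorting and release, 4 rose and 5 fell with αCD3 (median log2 fold change -0.07), 2 rose and 1 fell with IFNγ (-0.06), and 3 rose and 7 fell with LPS (-0.26). With the block 4 rose and 8 fell with αCD3, 4 and 5 with IFNγ, and 4 and 9 with LPS. Srgn, the proteoglycan that packs granzymes, rose with αCD3 (0.52, adjusted p = 0.00494), IFNγ (0.45, adjusted p = 0.0264) and LPS (0.47, adjusted p = 0.00598). Stx11, a syntaxin of granule fusion, rose most with LPS (1.45, adjusted p = 1.78e-05). Lyst, a regulator of lysosome size, fell by 1.80 with αCD3 (adjusted p = 2.13e-05), while Rab27a, which docks granules, rose with αCD3 (0.58, adjusted p = 0.00638). Of 7 granule proteases and their inhibitors, 2 fell with αCD3, 1 rose with IFNγ and 5 fell with LPS. With the block 2 rose and 4 fell with αCD3, 2 and 1 with IFNγ, and 0 and 7 with LPS. Ctsc, the protease that removes the granzyme propeptide, rose with IFNγ (1.25, adjusted p = 0.000321), and it fell by 0.47 with LPS (adjusted p = 0.00868). With αCD3 it was called with the block alone (0.17, adjusted p = 0.0426). Of 10 relatives of Serpinb9, 5 could be tested, of which 2 fell with αCD3, 1 rose with IFNγ, and 2 rose and 2 fell with LPS. With the block 1 rose and 2 fell with αCD3, 2 and 0 with IFNγ, and 2 and 2 with LPS. Serpinb9b rose with LPS (2.91, adjusted p = 2.71e-06), and 131 of the 31-base words of Serpinb9 were shared with it.

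Among the regulators, cytokines and death ligands that follow, counts stand against 22.9% of all genes higher and 15.7% lower with αCD3, 8.17% and 4.27% with IFNγ, and 26.9% and 22.3% with LPS. The blocked counts stand against 52.4%, 24.9% and 59.5% called in either direction. Of 17 regulators of the cytotoxic programme, 5 rose and 3 fell with αCD3, 3 rose and 1 fell with IFNγ, and 8 rose and 1 fell with LPS. With the block 7 rose and 5 fell with αCD3, 4 and 3 with IFNγ, and 10 and 3 with LPS. Tbx21, which encodes T-bet, was at 15.9, 17.2 and 23.8 CPM in Naïve. It was called as higher with LPS (2.48, adjusted p = 0.0109), where replicate 1 was at 15.03 CPM, below all Naïve libraries, and the others at 166.9 and 134.8 CPM. With IFNγ, Tbx21 was at 64.5, 62.9 and 79.9 CPM, above all Naïve libraries, and did not pass the test (1.86, adjusted p = 0.101). Eomes, its relative, rose with αCD3 (1.29, adjusted p = 0.0019) and IFNγ (0.97, adjusted p = 0.0233). Irf4 rose with αCD3 (1.68, adjusted p = 4.69e-06) and LPS (1.38, adjusted p = 3.7e-06), and Batf with LPS (2.38, adjusted p = 1.86e-06). Of 13 cytokines and receptors that act upstream, 4 rose with αCD3, 7 with IFNγ and 8 with LPS, and none fell. With the block 7, 8 and 10 rose. Il2ra, the IL-2 receptor α chain, rose with αCD3 (2.17, adjusted p = 0.000209), IFNγ (0.93, adjusted p = 0.0469) and LPS (2.70, adjusted p = 3.51e-05). Il12rb2, a chain of the IL-12 receptor, rose with IFNγ (2.68, adjusted p = 0.00836) and LPS (2.45, adjusted p = 0.00321). Of 9 death ligands and cytotoxic receptors, 4 rose and 1 fell with αCD3, where Crtam led (3.56, adjusted p = 7.03e-06), 2 rose and 1 fell with IFNγ, and 3 rose and 1 fell with LPS. With the block 6 rose and 1 fell with αCD3, 3 and 1 with IFNγ, and 4 and 2 with LPS. Tnf rose with αCD3 (1.17, adjusted p = 6.63e-05), IFNγ (1.31, adjusted p = 0.000321) and LPS (2.02, adjusted p = 2.13e-06).

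Markers of cell types moved with the treatments as well, counted here first without and then with the block. Of all genes, 38.6% and then 52.4% were called with αCD3, 12.4% and then 24.9% with IFNγ, and 49.3% and then 59.5% with LPS. Of the 8 T cell markers, 4 and then 6 rose with αCD3, and 6 fell with LPS in both fits. With IFNγ none of them was called by edgeR at first, and 1 rose and 1 fell with the block. Of 6 B cell markers, 4 and then 5 fell with αCD3, and 1 fell with IFNγ in both fits. With LPS 3 of them fell in both fits, while 1 and then 2 rose. Of 7 myeloid markers, 4 and then 7 fell with αCD3, 0 and then 3 with IFNγ, and 3 and then 4 with LPS, where 1 rose in both fits. Of 3 plasmacytoid dendritic cell markers, 0 and then 2 fell with αCD3 and with LPS. Of 5 NK cell markers, 0 and then 1 fell with αCD3, and 1 and then 3 fell with LPS, where 0 and then 1 rose. Of 7 markers of memory or effector T cells, 1 and then 2 rose and 3 fell with αCD3, and 3 and then 4 rose and 2 fell with LPS. With IFNγ 1 of them rose at first, and 2 rose and 1 fell with the block. Of 3 CD4 T cell markers, 1 and then 2 fell with αCD3 and 2 with LPS in both fits. The part of these shifts in the values of the 8 genes was not tested.

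The genes whose log2 CPM was most like that of each member over the 12 libraries are given as a description, since the libraries share groups and replicate numbers. They included Ms4a6d (Pearson r = 0.971) for Gzma, and were Rab5if (0.982) and Lif (0.968) for Gzmb. For Gzmc they were Pdcd5 (0.951) and Edf1 (0.947), for Gzmk Rgmb (0.95) and Atp8a2 (0.919), and for Gzmm E2f3 (0.876) and Upf1 (0.873). For Prf1 they were Snx19 (0.897) and Pld5 (0.867), for Nkg7 Mrps25 (0.978) and Icos (0.974), and for Serpinb9 Myd88 (0.973) and Ifi205 (0.971).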

How the data were processed

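RNA from 12 libraries (4 groups of 3) was sequenced. The authors counted reads per gene with kallisto on mm10 and deposited estimated counts, not normalized (the submitters' notes also name DESeq2 1.24.0; the kallisto version is not given in the sources used here). Total counts ran from 10196248 to 27610175 per library. The estimated counts were rounded to whole numbers, filtered with filterByExpr (minimum count 10; 0.808 CPM), scaled by TMM and tested in R 4.3.3 with edgeR 4.0.16 (quasi-likelihood, all 12 libraries in one fit, two-sided, Benjamini-Hochberg adjustment over 12122 genes, threshold 0.05). Log2 CPM used a prior count of 2. DESeq2 1.42.0, limma 3.58.1 (voom), RLE factors, library size alone, no count filter, only the groups compared, a replicate block and libraries left out were the alternatives. The scripts were tested on simulated data.

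Pairing was checked on deviations from group means. All 18 pairs of libraries with the same replicate number correlated above 0.1 (0.117 to 0.401). The 36 pairs with different numbers, from different groups, ran from -0.354 to 0.102. Among libraries of other groups, each of the 12 correlated best with one of its own number. The numbers were therefore taken to pair the libraries, a pairing that the fit without the block leaves out. Where the pairing comes from is not stated by the labels. The genes named are the 8 members, the 2 genes most like each member (one of those for Gzma is not reported here), and from each list called genes with the largest changes or those whose role is explained. The members and lists were chosen with earlier results of these data known. Gene positions and lengths came from GENCODE M21 and promoters from RefSeq, where all 8 members matched.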

Additional observations from a re-analysis of the deposited data

How the results depend on the processing

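The number of members called, Gzmc included, depended on the fit. Gzmc passed the filter through the libraries in which it was high, so these counts describe the fits and support nothing about the members. Without Gzmc, the block called 3 members rather than 4 for IFNγ against LPS. The share of all genes called in the same fit is given in brackets. With DESeq2, IFNγ against Naïve gave 1 call (15.2%). With limma-voom, αCD3 against Naïve gave 3 calls (39.4%), LPS against Naïve 1 (49.3%), IFNγ against αCD3 2 (36.9%), IFNγ against LPS 0 (39.3%) and any of the 4 groups 3 (61%). With only the groups compared, IFNγ against Naïve gave 1 (11.3%), IFNγ against αCD3 2 (33.2%) and IFNγ against LPS 0 (35.9%). The replicate block gave 2 calls for IFNγ against Naïve (24.9%), 4 for IFNγ against LPS (52.7%) and 4 for αCD3 against LPS (34.7%), and changed no other call of a member than those given with the results above. Leaving out 1 library, or all 4 of a replicate number (chosen after seeing the data), gave 1 to 5 calls for αCD3 against Naïve (11.2 to 48.8%), 0 to 3 for IFNγ against Naïve (0 to 23.3%), 0 to 5 for LPS against Naïve (22.8 to 55.1%), 1 to 6 for IFNγ against αCD3 (13.7 to 45.4%), 0 to 5 for IFNγ against LPS (19.1 to 47.8%), 1 to 5 for αCD3 against LPS (2.97 to 29.4%) and 1 to 7 for any of the 4 groups (22.3 to 66.4%). The highest of these shares came without replicate number 1 and the lowest without number 3, in each comparison. Leaving out a replicate number left 2 libraries per group. With only the groups compared, Gzmc did not pass the filter and has no value for LPS against Naïve or for any comparison with IFNγ.

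Of 764 member values under the alternatives, 619 kept their direction and side of the threshold, 63 lost the call, 35 gained it and 47 changed sign, none of these 47 called in either fit. The cause was not tested. By library size alone, log2 fold changes were 0.051 for Gzmk in IFNγ against LPS, -0.072 for Gzmc, -0.0044 for Gzmk and -0.14 for Prf1 in IFNγ against Naïve, and -0.055 for Gzmk and -0.012 for Gzmm in LPS against Naïve. RLE factors gave 0.0016 for Gzmk in IFNγ against LPS. For Prf1 in IFNγ against Naïve, no count filter gave -0.022, limma-voom -0.094 and the replicate block -0.091, and the block gave -0.16 for Gzmc. For Gzmc in αCD3 against LPS limma-voom gave -0.030. With libraries left out, the ranges were, in IFNγ against Naïve, -0.64 to 0.57 for Gzmc, -0.072 to 0.32 for Gzmk, -0.38 to 0.30 for Prf1 and -0.22 to 0.10 for Nkg7. In LPS against Naïve they were -0.18 to 0.47 for Gzmm and -0.28 to 0.087 for Nkg7, and in αCD3 against Naïve -0.77 to 0.091 for Gzma and -0.078 to 0.50 for Gzmm. In IFNγ against LPS they were -0.23 to 0.10 for Gzmk and -0.16 to 0.22 for Nkg7, and in IFNγ against αCD3 -0.12 to 0.35 for Serpinb9. In αCD3 against LPS they were -0.25 to 0.80 for Gzmc, -0.042 to 0.23 for Gzmm and -0.098 to 0.83 for Prf1. Depth limits Gzmc most, with 2 to 7 counts in each Naïve and IFNγ library.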
